A study of Homo sapiens with 8 samples.

Results

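The regulators of G protein signalling (RGS) were followed through 10 genes, RGS2, RGS3, RGS4, RGS5, RGS7, RGS10, RGS12, RGS16, RGS17 and RGS19, in 4 established human neuroblastoma cell lines with and without knockdown of BMI1. The members were all probe sets annotated to 1 of these symbols alone, which gave 34 of the 54675 probe sets on the array and 10 of 19776 genes. The members were chosen by the knockdown values of these arrays, since the family was picked after RGS2 was seen to be higher in all 4 lines. The comparison of knockdown with control is therefore given for the members as a description without a test, and the difference between cell lines, a separate comparison, was tested. The lines were SK-N-DZ, SK-N-BE, SH-SY5Y and NB-39-nu, each with 1 array of cells infected with the lentiviral control vector shCont (pLKO.1, labelled mock) and 1 of cells infected with a lentivirus carrying the short hairpin RNA shBMI1-1. Cells were harvested for RNA 8 to 14 days after infection, and the labels do not say on which day for each sample. All knockdown arrays used the same hairpin, so loss of BMI1 and other effects of that hairpin cannot be told apart. BMI1 belongs to the Polycomb proteins, which silence genes through chromatin, and the study asked which genes its knockdown perturbs.

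G protein coupled receptors act by loading GTP onto the alpha subunit of a G protein, which then signals until it hydrolyses the GTP. RGS proteins bind the active alpha subunit through a shared RGS domain and speed up that hydrolysis, so they shorten signalling through adenylyl cyclase, phospholipase C beta and ion channels. The small members RGS2, RGS3, RGS4, RGS5 and RGS16 make up 1 subfamily, in which RGS2 is known for its preference for the Gq class. RGS7 works with the beta subunit GNB5, RGS10 and RGS12 belong to another subfamily acting on the Gi class, and RGS17 and RGS19 belong to the one that also acts on Gz. RGS4 is a gene of neurons and RGS5 is widely used as a marker of pericytes, the cells that wrap around small vessels.

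The proximal promoters of RGS2, RGS4 and RGS5 are shown because the brightest probe sets of these 3 genes had the highest mean ratios after knockdown among the members bright enough to test, and because RGS4 and RGS5 are neighbours on chromosome 1. The sequences are the 250 bases before the start of transcription, from RefSeq on GRCh38.p14, where all 10 members had at least 1 start and 27 starts in all. RGS2 has 1 start there. RGS4 has 4 starts, of which the one with a TATA box is shown, and RGS5 has 2, both shown. Capitals mark matches on either strand to 5 motifs: the CRE core CGTCA bound by cAMP-responsive factors, the TATA box TATAAA, the CCAAT box CCAAT, the GC box GGGCGG and the GATA site GATAA. The E-box CACGTG of the MYC family was searched too.
RGS2, chr1:192808789-192809038, plus strand: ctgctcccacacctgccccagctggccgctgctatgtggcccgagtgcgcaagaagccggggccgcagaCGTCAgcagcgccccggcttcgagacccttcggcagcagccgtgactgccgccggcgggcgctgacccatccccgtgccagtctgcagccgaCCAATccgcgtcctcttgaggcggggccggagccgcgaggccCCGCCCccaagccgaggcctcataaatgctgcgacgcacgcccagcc
RGS4, chr1:163069111-163069360, plus strand: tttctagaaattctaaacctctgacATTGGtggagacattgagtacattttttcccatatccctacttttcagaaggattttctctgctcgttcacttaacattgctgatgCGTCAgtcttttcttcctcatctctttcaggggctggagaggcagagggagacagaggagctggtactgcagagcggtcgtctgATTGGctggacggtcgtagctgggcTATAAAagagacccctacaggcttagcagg
RGS5 downstream start, chr1:163202917-163203166, minus strand: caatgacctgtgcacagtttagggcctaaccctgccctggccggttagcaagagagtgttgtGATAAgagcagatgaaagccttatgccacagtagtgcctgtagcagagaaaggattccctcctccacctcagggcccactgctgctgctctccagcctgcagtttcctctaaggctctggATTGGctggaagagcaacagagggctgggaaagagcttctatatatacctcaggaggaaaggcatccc
RGS5 upstream start, chr1:163321736-163321985, minus strand: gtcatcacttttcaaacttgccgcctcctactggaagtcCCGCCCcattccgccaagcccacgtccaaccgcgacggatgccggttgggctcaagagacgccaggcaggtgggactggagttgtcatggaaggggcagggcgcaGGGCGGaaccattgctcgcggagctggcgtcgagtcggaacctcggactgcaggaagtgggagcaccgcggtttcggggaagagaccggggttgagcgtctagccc
The RGS2 window held 1 CRE core, 1 CCAAT box and 1 GC box. The RGS4 window shown held 1 CRE core, 1 TATA box and 2 CCAAT boxes. It was chosen for its TATA box after the windows were seen, so the share of windows with that box is no comparison for it. Of the other RGS4 windows, numbered by position, windows 1 and 4 held none of the motifs. Window 2 held 1 CRE core and 1 CCAAT box. The downstream RGS5 window held 1 GATA site and 1 CCAAT box, and the upstream one 2 GC boxes. None of the 4 windows shown held the E-box. Among 35116 promoter windows of the same length, 21.2% held the CRE core, 10.7% the TATA box, 32.0% the CCAAT box, 42.6% the GC box, 20.4% the GATA site and 6.34% the E-box. The motifs do not overlap one another in the 4 windows shown, and a match is a description of letters, not a binding site.

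The arrays were Affymetrix HG-U133 Plus 2.0 arrays, whose deposited signal is a linear intensity per probe set, scaled on each array to a trimmed mean of 500, with array medians between 69.9 and 79.8. The targeted gene itself, BMI1, kept 24.6% of its control signal in NB-39-nu and 39.4% in SK-N-DZ, and 65.0% and 65.5% in SK-N-BE and SH-SY5Y. Its only probe set also matches a read-through transcript from COMMD3. The labelled cell type was checked against its markers: 9 of 10 adrenergic neuroblastoma markers on the array lay above a signal of 75, about the median of the table, on all 8 arrays, and their summed signal ran from 44530 to 120700 in control and from 44500 to 143000 in knockdown arrays. The 12 mesenchymal neuroblastoma markers summed to between 19840 and 57340 in control arrays. Of these 12, 4 were above 75 on all arrays, and WWTR1 and CD44 were under 75 on all. In NB-39-nu control cells the mesenchymal sum was above the adrenergic one (57340 against 44530). VIM alone made up 40260 of the former and GATA3 25750 of the latter. The sums come from different probe sets, so they do not rank the cell states. The 7 fibroblast markers summed to at most 6227 in control and 16110 in knockdown arrays, both in NB-39-nu. Leukocyte and endothelial markers summed to at most 433.8 and 363 on any array, and 0 of 6 in either list was above 75 on all arrays. Signals are compared below only within a probe set, since probe sets differ in how strongly they bind.

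The RGS genes ranged from among the most to among the less variable genes between the 4 lines. RGS5, RGS10, RGS16 and RGS17 each varied at least 24.8-fold between the highest and the lowest control array, while RGS2 and RGS19 varied by 2.27-fold and 2.03-fold. Among all genes tested, the range over control arrays stood at the 98.45th percentile for RGS5, the 96.25th for RGS10, the 95.96th for RGS16 and the 95.08th for RGS17. RGS3 and RGS4 stood at the 87.6th and 85.56th, RGS12 at the 66.91st, RGS2 at the 47.28th and RGS19 at the 37.69th. Of the 10 members, 9 had a mean signal above the filter on dim genes (a mean log2(signal + 8) above 7.485, the median over genes) and were tested. All 9 differed between lines (limma F test over the line terms, adjusted over 9888 genes, threshold 0.05). That share is near the background, since 79.9% of all genes tested differed between lines in the same fit. The filter used the mean of all arrays, so a member that is high in a single line passes it through that line. Each line entered with its control and its knockdown array and no line had a repeat of 1 condition. The fit first removed the shift between control and knockdown that all lines share. These p-values therefore set the lines against the spread between the 2 arrays of a line that was left after that shift. No label says that the 2 arrays of a line came from repeated cultures. In bulk RNA, fewer cells expressing a gene and less RNA per cell cannot be told apart. Over pairs of lines, 35 of 54 member pairs differed. Of the 9 members, 8 differed between SK-N-BE and SK-N-DZ (50.3% of all genes tested), 6 between NB-39-nu and SK-N-BE (46.9%), 6 between SH-SY5Y and SK-N-BE (48.4%), 5 between NB-39-nu and SH-SY5Y (49.9%), 5 between NB-39-nu and SK-N-DZ (46.8%) and 5 between SH-SY5Y and SK-N-DZ (51.0%).

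**Figure D1:**
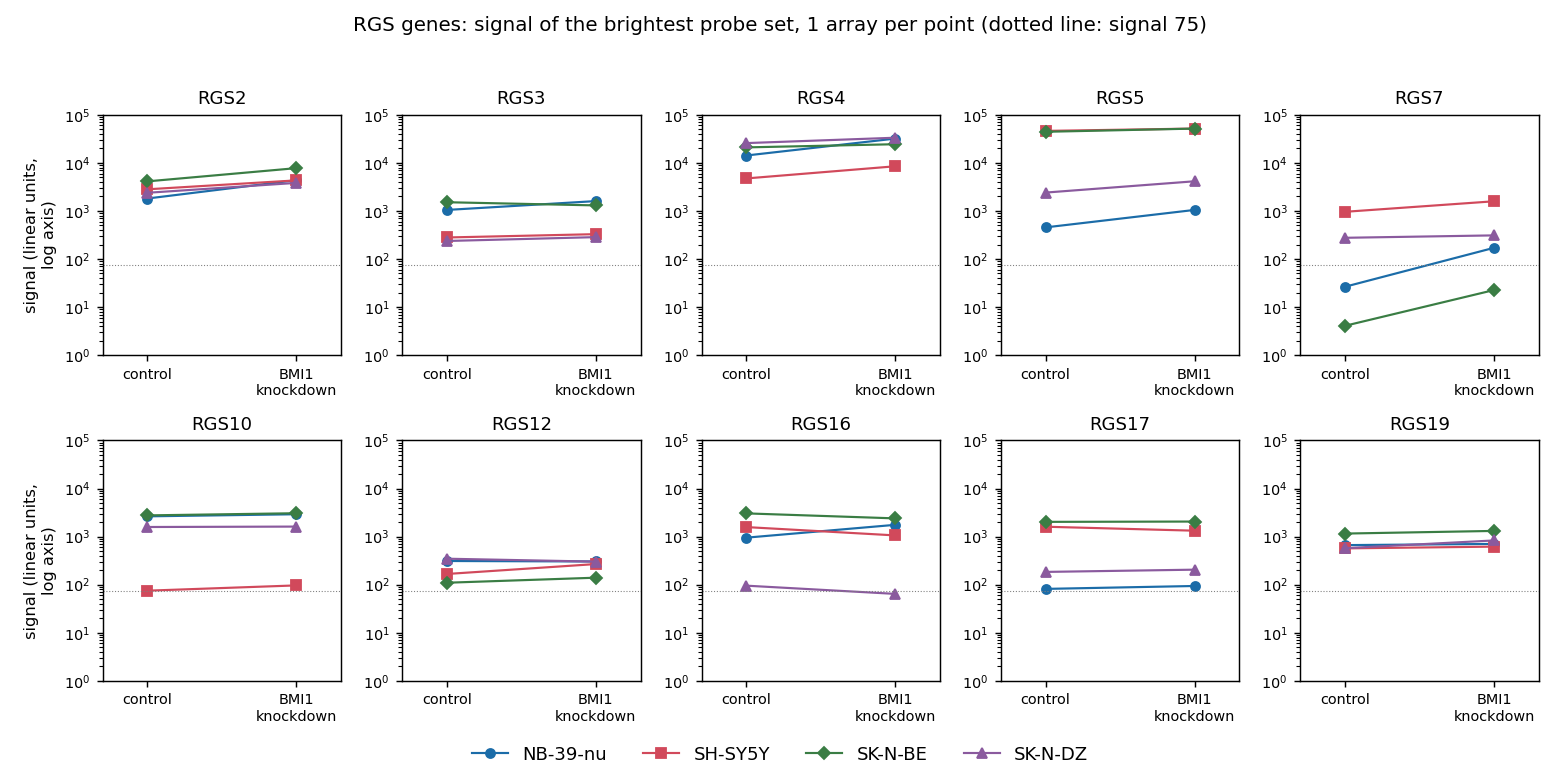
Signal of the brightest probe set of each RGS gene in the control and the BMI1 knockdown array of each of the 4 cell lines, 1 array per point on a log axis, with the 2 arrays of a line joined and a dotted line at 75. RGS2 is higher after knockdown in every line, from a control range of 1815 to 4128, RGS5 splits the lines by 102-fold between 455 and 46315 in the controls, and RGS10 is low in SH-SY5Y alone.

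Among the small subfamily, RGS5 had the widest range of any tested member. Control signals were 455 in NB-39-nu, 2411 in SK-N-DZ, 44382 in SK-N-BE and 46315 in SH-SY5Y, and its knockdown signals were 1051, 4144, 51727 and 51807 in the same order. SK-N-BE and SH-SY5Y were high, SK-N-DZ was intermediate and NB-39-nu was low, and no array of one level overlapped an array of another. The ratio of the highest to the lowest control signal was 102. SH-SY5Y and SK-N-BE differed by less than the spread (log2 difference 0.03, SE 0.23, limma adjusted p = 0.920), whereas SK-N-BE was 15.1-fold above SK-N-DZ (limma adjusted p = 4.14e-06) and SK-N-DZ 4.53-fold above NB-39-nu (limma adjusted p = 1.35e-04). The F test gave an adjusted p of 5.02e-07 (limma).

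RGS5 has 6 probe sets, and the 4 brightest gave the same order of high and low lines. Numbered from the brightest, probe set 2 read 401 in NB-39-nu, 1447 in SK-N-DZ, 27345 in SH-SY5Y and 30849 in SK-N-BE control cells. Probe set 3 read 243, 1371, 29473 and 32709 in the same order of lines, and probe set 4 read 157, 1145, 25912 and 27854. The other 2 did not show the split: probe set 5 ran from 218 in SK-N-BE to 664 in SK-N-DZ and probe set 6 from 39.0 in SH-SY5Y to 128 in NB-39-nu among controls. Since RGS5 marks pericytes, a list of 8 other pericyte and smooth muscle markers was read beside it. Its summed signal in control arrays ran from 1921 in NB-39-nu to 2526 in SK-N-DZ, 3488 in SH-SY5Y and 10250 in SK-N-BE, and 2 of 8, ACTA2 and KCNJ8, were above 75 on all arrays. ACTA2, a smooth muscle actin, read 8401 in SK-N-BE and 2360 in SH-SY5Y control cells, where RGS5 was high, against 381.7 in NB-39-nu and 101.8 in SK-N-DZ. ACTA2 alone made up most of the summed signal in SK-N-BE and SH-SY5Y. KCNJ8 did not follow RGS5: it read 1131 and 541.7 in those high lines, with NB-39-nu at 689.2 and SK-N-DZ at 1373. The contractile gene CNN1 read 212 and 157.1 in those high lines, with NB-39-nu at 28 and SK-N-DZ at 378.8, and the pericyte receptor PDGFRB read 346.4 and 86.92, with NB-39-nu at 380.4 and SK-N-DZ at 31.59. The part of these markers in the level of RGS5 was not tested.

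**Figure D2:**
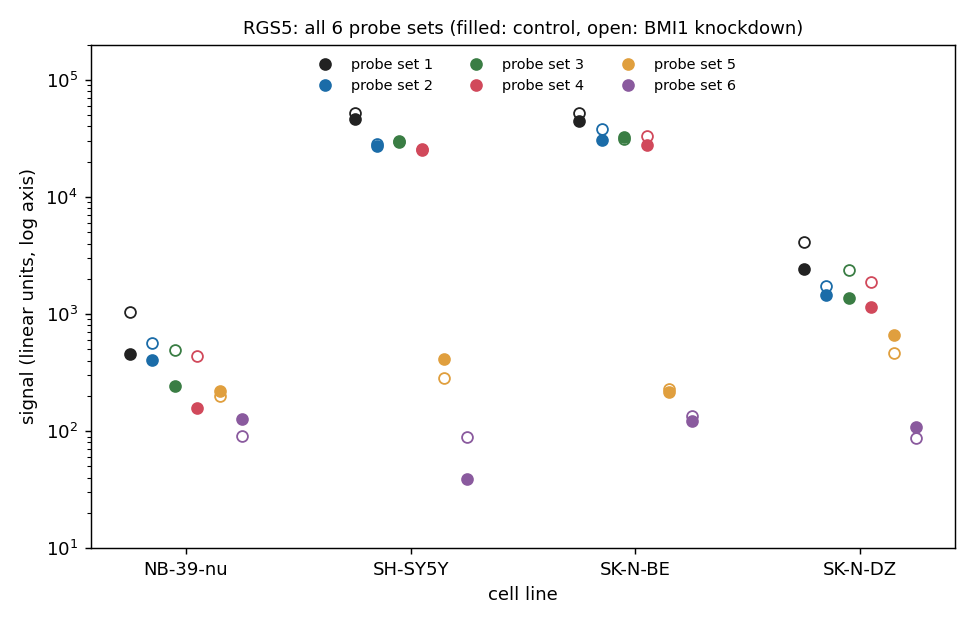
Signal of all 6 RGS5 probe sets on a log axis by cell line, filled points for control and open points for BMI1 knockdown arrays, 1 array per point, numbered from the brightest. Probe sets 1 to 4 lie between 25090 and 51810 in SH-SY5Y and SK-N-BE and between 157 and 4144 in NB-39-nu and SK-N-DZ, while probe sets 5 and 6 stay between 39.0 and 664 in every line.

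RGS4, which dampens Gi and Gq signals in neurons, was low in SH-SY5Y, a line where RGS5 was high. In control arrays it read 4748 in SH-SY5Y, with NB-39-nu at 14241, SK-N-BE at 21020 and SK-N-DZ at 25809. SH-SY5Y was below NB-39-nu by 3.36-fold (limma adjusted p = 2.07e-04), and NB-39-nu, SK-N-BE and SK-N-DZ did not differ beyond their spread (lowest limma adjusted p = 0.0987, for NB-39-nu against SK-N-DZ). The F test passed with an adjusted p of 8.9e-05 (limma), but without SH-SY5Y it did not (adjusted p = 0.135). The other 2 RGS4 probe sets were also lowest in SH-SY5Y, at 832 and 294, against 1632 to 5088 in the other control arrays.

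RGS16, a small member with activity toward Gi and Gq, was low in SK-N-DZ. The control arrays read 95.3 in SK-N-DZ, 950 in NB-39-nu, 1578 in SH-SY5Y and 3042 in SK-N-BE. SK-N-DZ was 15.1-fold below NB-39-nu (limma adjusted p = 3.97e-05), NB-39-nu and SH-SY5Y did not differ beyond their spread (1.00-fold, SE 0.33 on the log2 scale, limma adjusted p = 0.999), and SK-N-BE was 2.08-fold above SH-SY5Y (limma adjusted p = 0.0286). The knockdown array of SK-N-DZ read 64.3, under 75. The second RGS16 probe set repeated that order, at 45.3, 585, 709 and 1538. Probe set 3 lay under 75 on all 8 arrays.

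RGS3, whose gene also makes longer proteins, divided the lines otherwise: control signals were 237 in SK-N-DZ, 281 in SH-SY5Y, 1049 in NB-39-nu and 1519 in SK-N-BE. The upper and the lower pair of lines were separated by 4.19-fold between NB-39-nu and SH-SY5Y (limma adjusted p = 1.65e-04), and neither pair differed within itself (limma adjusted p = 0.711 and 0.468). RGS2 was the most even of this subfamily. Its control signals were 1815 in NB-39-nu, 2389 in SK-N-DZ, 2822 in SH-SY5Y and 4128 in SK-N-BE. Over both arrays SK-N-BE was 1.62-fold above SH-SY5Y (limma adjusted p = 0.0108), and the other 3 lines did not differ from one another (lowest limma adjusted p = 0.176). The RGS2 line difference (limma F adjusted p = 0.00286) did not pass without SK-N-BE (adjusted p = 0.383).

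RGS7, a neuronal RGS protein that depends on GNB5, lay under the filter, with a mean log2(signal + 8) of 7.27, and was not tested with the others. In control cells it read 4.08 in SK-N-BE, 26.5 in NB-39-nu and 276 in SK-N-DZ, against 960 in SH-SY5Y. SH-SY5Y and SK-N-DZ were above 75 on both arrays, while both SK-N-BE arrays and the NB-39-nu control were under it, so the order and folds of those lines are not measured levels. When all 19776 genes were tested without the filter, RGS7 differed between lines (limma adjusted p = 5.84e-05), as did 47.2% of genes. SH-SY5Y, measured above 75 like SK-N-DZ, was 4.13-fold above it over both arrays (limma adjusted p = 0.0174). The second RGS7 probe set read 181 in SH-SY5Y and was under 75 in the other 3 control arrays, and probe set 3 was under 75 on all arrays. GNB5, its partner, read 1003 in SK-N-DZ control cells, with SH-SY5Y at 786, SK-N-BE at 547 and NB-39-nu at 352, so it was highest in SK-N-DZ and RGS7 in SH-SY5Y. RGS7BP, which anchors the RGS7 and GNB5 pair to the membrane, was under 75 on all 8 arrays.

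RGS10, a short protein acting on Gi that is best known from immune cells and microglia, was low in SH-SY5Y. Control cells read 74.9 in SH-SY5Y, 1584 in SK-N-DZ, 2640 in NB-39-nu and 2764 in SK-N-BE. SH-SY5Y was 17.3-fold below SK-N-DZ (limma adjusted p = 1.14e-06), SK-N-DZ was 1.73-fold below NB-39-nu (limma adjusted p = 0.00519), and NB-39-nu and SK-N-BE did not differ (limma adjusted p = 0.767). The second RGS10 probe set was again lowest in SH-SY5Y, at 28.8 against 150 to 281. The leukocyte marker sum was 402 in SH-SY5Y, of which the pan-leukocyte gene PTPRC made up 218, and the other control arrays had sums of 223 to 317. Of the 6 leukocyte markers 0 were above 75 on all arrays, and their part in the level of RGS10 was not tested.

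RGS12, a large protein that also binds Ras and other signalling proteins, had a 3.16-fold range: control signals of its brightest probe set were 110 in SK-N-BE, 167 in SH-SY5Y, 311 in NB-39-nu and 347 in SK-N-DZ. SK-N-BE differed from NB-39-nu by 2.39-fold (limma adjusted p = 0.0123) and from SK-N-DZ by 2.51-fold (limma adjusted p = 0.0086), and no neighbours in the order differed beyond their spread. The F test (limma adjusted p = 0.0149) was lost without SK-N-BE (adjusted p = 0.246). Its other 9 probe sets lay under the filter.

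RGS17, which acts on Gz and Gi, followed a split like that of RGS5. Control signals ran from 81.6 in NB-39-nu and 184 in SK-N-DZ to 1605 in SH-SY5Y and 2026 in SK-N-BE. NB-39-nu was 2.12-fold below SK-N-DZ (limma adjusted p = 0.0041), SK-N-DZ was 7.25-fold below SH-SY5Y (limma adjusted p = 2.47e-05), and SH-SY5Y and SK-N-BE did not differ beyond their spread (limma adjusted p = 0.102). The NB-39-nu arrays, at 81.6 and 93.9, lay close above 75, which limits the fold for that line. RGS17 lies on chromosome 6 and RGS5 on chromosome 1. RGS19, of the same subfamily, was nearly even: 569 in SH-SY5Y, 574 in SK-N-DZ, 665 in NB-39-nu and 1156 in SK-N-BE control cells. SK-N-BE was above each of the others by 1.77-fold to 2.06-fold, the others did not differ (lowest limma adjusted p = 0.378), and without SK-N-BE the F test went from an adjusted p of 0.00429 to 0.597 (limma).

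The genes whose log2 signal over the 8 arrays was most like that of RGS5 were PHF21B (Pearson r = 0.998), AP3M1 (0.993) and TIMMDC1 (0.992). PHF21B read 3736 and 2429 in SH-SY5Y and SK-N-BE control cells against 1.31 and 57.0 in NB-39-nu and SK-N-DZ. Those most like RGS10 were VAT1L (0.996), HEATR3 (0.993) and PDPR (0.991), and VAT1L read 45.7 in SH-SY5Y against 641 to 1408 in the other control arrays. Those most like RGS2 were OS9 (0.969), YEATS2 (0.958) and PGAP4 (0.919). These are the highest among all genes tested, over 8 arrays that share 4 lines, and are a description only.

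After BMI1 knockdown, RGS2 was higher in all 4 lines. In NB-39-nu it went from 1815 to 4376 and in SK-N-DZ from 2389 to 3839. In SK-N-BE it went from 4128 to 7781 and in SH-SY5Y from 2822 to 4328. The 2 groups overlapped only through SK-N-BE, whose control array was above the SK-N-DZ knockdown array. The folds, of signal + 8, were 2.40 in NB-39-nu, 1.61 in SK-N-DZ, 1.88 in SK-N-BE and 1.53 in SH-SY5Y, and the mean log2 ratio was 0.87 ± 0.29 (SD, n = 4 lines). RGS2 has 1 probe set on the array, so no second probe set could be set beside it. The median log2 ratio over all genes tested was between 0.02 and 0.03 in each line.

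The brightest probe sets of RGS4, RGS5, RGS10 and RGS19 were also higher in all 4 lines, which makes 5 of the 9 members tested. RGS10 was only 1.02-fold higher in SK-N-DZ. Over all genes tested, 10.6% were higher in all 4 lines and 7.65% lower, and 0 of the 9 members was lower in all of them. Because the list was drawn up with this contrast in view, nothing is read from that count. Of the 9 members tested, by their brightest probe sets, RGS2 alone was at least 1.5-fold higher in every line. So were 2 of all 9888 genes tested (0.0202%), RGS2 among them. The family was picked by this rise of RGS2, whose lowest fold was 1.53, so nothing is read from this count either. Outside that count, the second RGS7 probe set, which lay under the filter, was 1.61-fold to 2.17-fold higher. The median of the members' mean log2 ratios was 0.22, beside 0.03 over all genes tested.

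RGS4 went from 14241 to 32029 in NB-39-nu and from 4748 to 8500 in SH-SY5Y. In SK-N-BE it went from 21020 to 24463 and in SK-N-DZ from 25809 to 33389, so the 2 groups overlapped. Its mean log2 ratio was 0.65 ± 0.44 (SD, n = 4 lines). Probe sets 2 and 3 had means of 0.55 ± 0.53 and 0.34 ± 0.58 and were lower in SK-N-BE, with log2 ratios of -0.02 and -0.41, so a rise in that line was not seen with every probe set. RGS5 had a mean log2 ratio of 0.59 ± 0.49 (SD, n = 4 lines), made up of 1.19 in NB-39-nu and 0.78 in SK-N-DZ, where its level was low, and 0.16 and 0.22 in SH-SY5Y and SK-N-BE, where it was high. Probe sets 2, 3 and 4 had means of 0.27, 0.44 and 0.59, with ratios between -0.05 and 0.30 in SH-SY5Y and SK-N-BE, and probe set 5 had a mean of -0.26 ± 0.29. The RGS5 mean was 0.39 without NB-39-nu and 0.29 with the mean of all probe sets. BMI1 kept 24.6% of its control signal in NB-39-nu and 39.4% in SK-N-DZ, against 65.5% in SH-SY5Y and 65.0% in SK-N-BE. The control level of RGS5 and the depth of knockdown therefore cannot be told apart over these lines.

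RGS7 was higher in all 4 lines with both of its brighter probe sets. The brightest went from 26.5 to 171 in NB-39-nu and from 960 to 1589 in SH-SY5Y. In SK-N-BE it went from 4.08 to 22.6, under 75 on both arrays, and in SK-N-DZ from 276 to 310. Its mean log2 ratio was 1.15 ± 0.95 (SD, n = 4 lines) and that of the second probe set was 0.90 ± 0.18, though 5 of the 8 arrays of that probe set were under 75. Probe set 3, under 75 on all arrays, had a mean of -1.20. The RGS7 mean depended on how dim values were treated, at 0.60 on the log2(signal + 75) scale and 0.28 with the mean of all probe sets, and it was 0.74 without NB-39-nu.

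RGS10 had a mean log2 ratio of 0.16 ± 0.13 (SD, n = 4 lines) with its brightest probe set and 0.89 ± 0.62 with the second, where SH-SY5Y went from 28.8 to 112 and SK-N-BE from 149.9 to 299.8. Both were higher in all 4 lines, with different sizes. In SK-N-DZ the ratio of the brightest was only 0.029 (1584 to 1616), under the median of 0.034 over all genes tested in that line. Probe set 3 was dimmer than the filter and averaged 0.29 ± 1.07, with -0.15 in SH-SY5Y and -0.79 in SK-N-BE. The mean of RGS10 was 0.11 without SH-SY5Y and 0.45 with the mean of all probe sets. RGS19 had a mean of 0.23 ± 0.20, led by 0.53 in SK-N-DZ (574 to 832), and of 0.13 without that line. The mean of RGS3 was 0.22 ± 0.34, with -0.22 in SK-N-BE, and it became -0.28 when its other 2 probe sets, under 75 on all arrays, were averaged in, 0.09 without NB-39-nu and 0.36 without SK-N-BE. RGS12 had a mean of 0.19 ± 0.38, with SH-SY5Y at 0.66 and SK-N-DZ at -0.20, and was 0.03 without SH-SY5Y, 0.32 without SK-N-DZ and 0.33 with the mean of all probe sets. RGS17 averaged 0.02 ± 0.21, with a range from -0.27 in SH-SY5Y to 0.18 in NB-39-nu, and its sign turned under 4 of 8 alternatives.

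RGS16 divided the lines, with a mean log2 ratio of -0.14 ± 0.69 (SD, n = 4 lines), which was -0.48 without NB-39-nu, 0.01 without SH-SY5Y, -0.07 without SK-N-BE, -0.01 without SK-N-DZ and 0.10 with the mean of all probe sets. It went from 950 to 1757 in NB-39-nu, but from 1578 to 1059 in SH-SY5Y. It also went down in SK-N-BE, from 3042 to 2394, and in the dim SK-N-DZ, from 95.3 to 64.3. The second probe set gave the same signs in NB-39-nu, SH-SY5Y and SK-N-BE and the other sign in SK-N-DZ, where it went from 45.3 to 71.7.

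**Figure D3:**
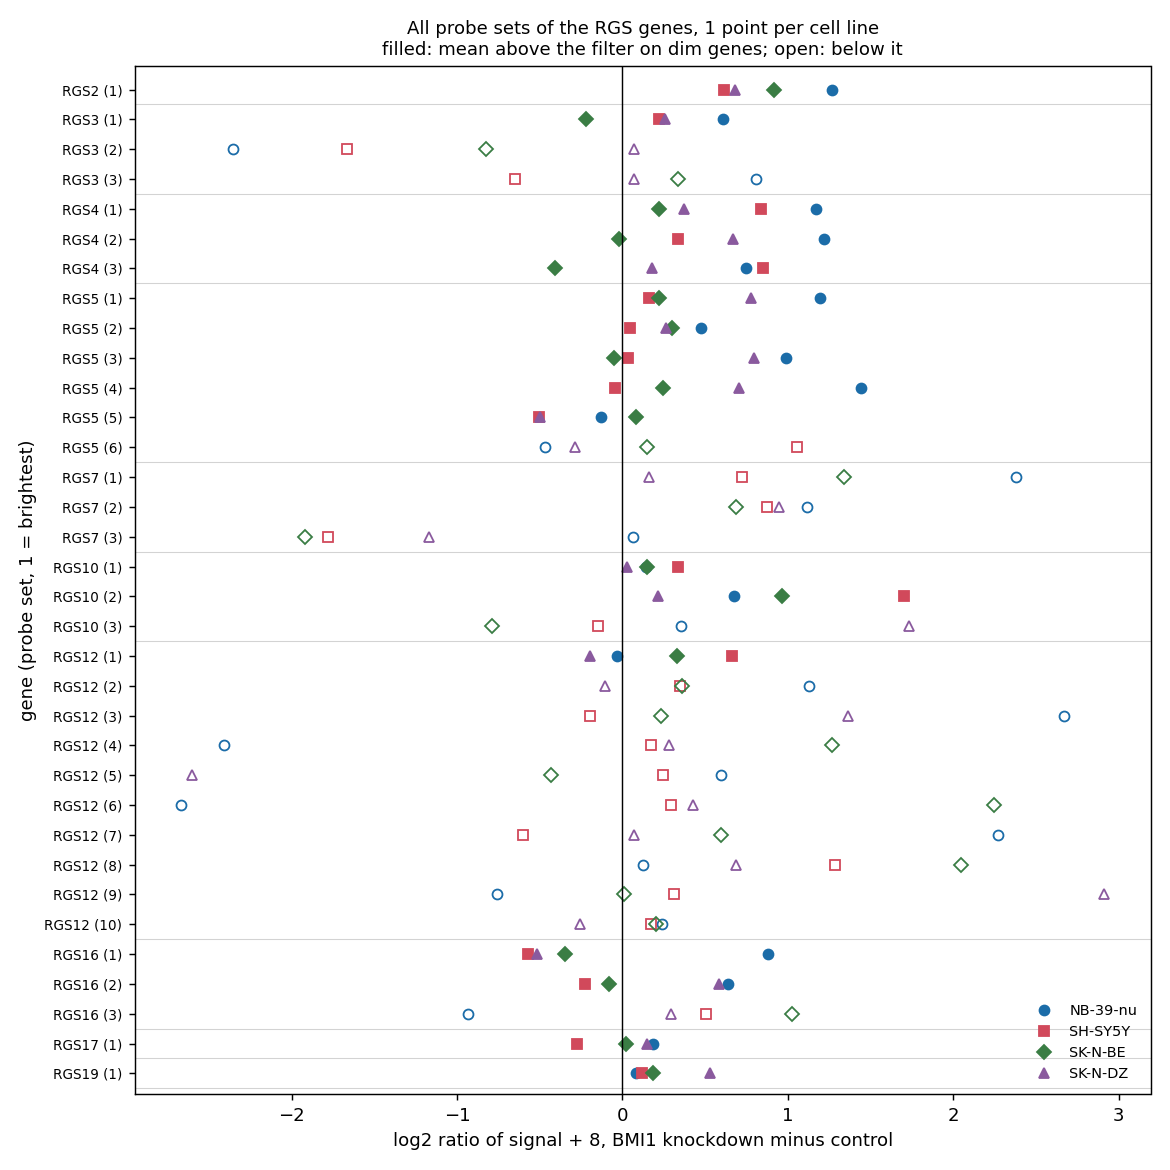
Log2 ratio of signal + 8, BMI1 knockdown minus control, for all 34 probe sets of the 10 RGS genes, 1 point per cell line, numbered within a gene from the brightest and filled where the mean was above the filter on dim genes. RGS2 lies between 0.62 and 1.27, while 9 of the 10 RGS12 probe sets are open points that scatter from -2.67 to 2.91.

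Of the 34 probe sets, 17 were above the filter. Of these 17, 7 were higher in all 4 lines and 0 were lower in all 4, beside 9.68% and 8.03% of all single-gene probe sets above the filter. These are the knockdown values the family was picked by, so nothing is read from the count. The single RGS2 and RGS19 probe sets, 1 of RGS4, 2 of RGS5 and 2 of RGS10 were the higher ones. Among the 17 dimmer probe sets 3 were higher in all 4 lines, 2 of RGS7 and 1 of RGS12. The RGS12 one was under 75 on all 8 arrays. The share among all dim probe sets was not counted, so nothing is read from these 3.

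RGS2, RGS4, RGS5, RGS7 and RGS16 lie on chromosome 1, and the protein-coding genes next to RGS2, RGS4, RGS5 and RGS16 were read as well (2 on each side, those with a single-gene probe set). Next to RGS2 lie RGS13 and, beyond it, RGS1 on one side and UCHL5 and RO60 on the other. RGS1 was under 75 on all arrays and RGS13 on 5 of 8. UCHL5, a deubiquitinase, had a mean log2 ratio of -0.18 ± 0.38 (SD, n = 4 lines; limma adjusted p = 0.712) and RO60, an RNA-binding protein, one of -0.14 ± 0.16 (limma adjusted p = 0.684), so neither passed the test of knockdown. Only 0.0101% of all genes tested passed it, so this does not set the neighbours apart. Beside the pair RGS4 and RGS5, HSD17B7 was at 0.02 ± 0.17 (limma adjusted p = 0.963) and NUF2, a kinetochore protein, at -0.08 ± 0.26 (limma adjusted p = 0.843), and CCDC190 was dim. NUF2 read 6800 in NB-39-nu and 3874 in SH-SY5Y control cells, without the split of RGS5. Beside RGS16, RGS8 and RGSL1 lay under the filter and NPL was at 0.23 ± 0.44 (limma adjusted p = 0.765).

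The other genes of the pathway were taken from 8 lists that hold 166 genes, of which 153 were on the array and 73 were above the filter. After knockdown 0 of the 73 passed in either direction (limma adjusted over all genes), where 0.0101% of all genes did. At an unadjusted p under 0.05, limma gave 5 higher and 2 lower among the 73, beside 4.98% higher and 4.36% lower of all genes tested, or 9.33% together. Their median log2 ratio was 0.03, the same as over all genes. The values below are of the highest and the lowest tested gene of each list, none of which passed.

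Of the 11 other RGS genes listed, 10 were on the array and only RGS14 was above the filter, at -0.03 ± 0.35 (SD, n = 4 lines). The 16 genes with an RGS-like domain had 12 tested members, 5 higher and 7 lower in the mean. ARHGEF12, which links G12 and G13 to RhoA, was at -0.52 ± 0.55 and lower in 4 of 4 lines, led by NB-39-nu (2276 to 914), and AXIN2, a scaffold and target of Wnt signalling, was at 0.37 ± 0.33 and higher in 4 of 4 (limma adjusted p = 0.499 and 0.605). Among 4 tested partners and modulators, GPSM1 was at -0.14 ± 0.24 and the exchange factor RIC8B at 0.09 ± 0.21.

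Of the alpha subunits, the direct targets of RGS proteins, 10 of 16 were tested, 6 higher and 4 lower in the mean with a median of 0.02. The Gq class subunit GNA11 was lowest at -0.09 ± 0.26 and the neuronal Go subunit GNAO1 highest at 0.30 ± 0.48 (SD, n = 4 lines). Of the beta and gamma subunits 10 of 16 were tested, from GNG12 at -0.23 ± 0.37 to GNG7 at 0.29 ± 0.41, with a median of 0.01. Of 15 tested effectors 10 were higher in the mean, from the cyclase ADCY6 at -0.20 ± 0.40 to the phosphodiesterase PDE4B at 0.57 ± 0.60, which was dim in NB-39-nu (4.90 to 26.4). Of 14 tested receptors 8 were higher in the mean, from the sphingosine phosphate receptor S1PR2 at -0.33 ± 0.64 to the lysophosphatidic acid receptor LPAR1 at 0.67 ± 1.02, which went from 130.5 to 609.2 in NB-39-nu. All 7 tested genes of the list of early genes induced by cAMP and calcium were higher in the mean, from the phosphatase DUSP1 at 0.01 ± 0.25 to the kinase SIK1 at 0.36 ± 0.36. Of these 7, 0 were higher in all 4 lines and 0 passed at an unadjusted p under 0.05 (limma), and 56.5% of all genes were higher in the mean.

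**Figure D4:**
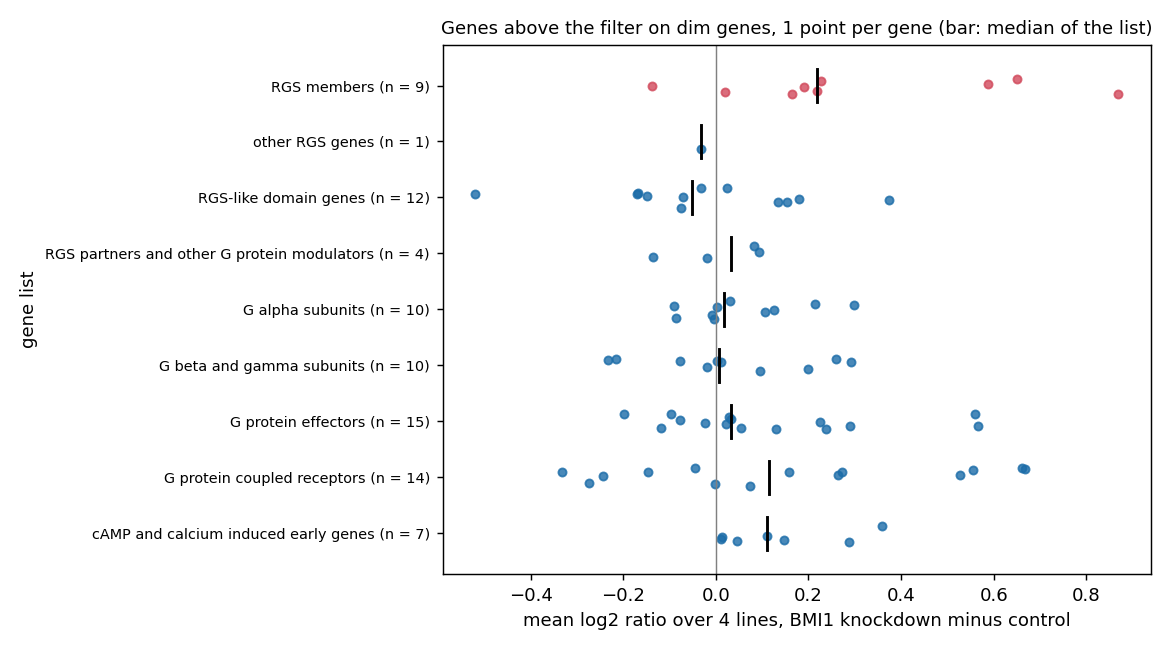
Mean log2 ratio over the 4 lines, BMI1 knockdown minus control, of the tested genes of the RGS members (red) and of the 8 pathway lists (blue), 1 point per gene, with a bar at each list's median. The members run from -0.14 for RGS16 to 0.87 for RGS2, and list medians run from -0.05 for genes with an RGS-like domain to 0.12 for the receptors.

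Marker lists of cell states gave these values after knockdown. Of 9 tested adrenergic markers 0 passed, and they ran from DBH, which makes noradrenaline, at -0.18 ± 0.71 (SD, n = 4 lines) to the granin CHGB at 0.63 ± 0.52, higher in 4 of 4 lines (limma adjusted p = 0.404). Of 8 tested mesenchymal markers 0 passed, from VIM at -0.39 ± 1.39 to SIX4 at 0.63 ± 0.61. VIM was higher in 3 of 4 lines. Its negative mean came from SK-N-DZ, where it went from 112.2 to 14.04, under 75 after knockdown. The 2 tested pericyte and smooth muscle markers were ACTA2 at -0.40 ± 1.16 and KCNJ8 at 0.32 ± 0.35, and the 4 tested fibroblast markers ran from LUM at 0.14 ± 0.91 to PDGFRA at 0.47 ± 1.40. In NB-39-nu, which had the highest RGS2, RGS4 and RGS5 ratios, the summed fibroblast markers went from 6227 to 16110, mainly through LUM (5522 to 14200), and the part of these markers in the RGS ratios was not tested.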

How the data were processed

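The 8 arrays were total RNA of 4 cell lines, 1 control and 1 BMI1 knockdown array each, grouped by their titles. The authors deposited array intensities (signal) on a linear scale. GCOS and MAS5 are listed as tools, per the submitters' processing notes, with no version or role. The deposited table held 54675 probe sets without present or absent calls, and the number of arrays limits the precision. Genome build and annotation of the processing are not given in the sources used here. The platform annotation gave 1 gene for 41097 probe sets, several for 1801 and none used here for 11777, and 41043 took the current symbol of the RefSeq gene table for GRCh38.p14.

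Values were log2(signal + 8), so a fold change understates that of dim genes. The probe set with the highest mean stood for a gene, and the 9888 genes above the median mean were tested with limma 3.58.1 in R 4.3.3 (lmFit, eBayes with trend) on line and condition, with Benjamini-Hochberg adjustment at 0.05. Cell line is a block because each line gave both arrays: the deviations of its 2 arrays from their group means correlated at 0.862 to 0.938. The fits were also run on simulated data in which few genes had a line or knockdown effect. Here 79.9% of genes tested differed between lines, so that run does not give the error rates for these arrays. The members and gene lists were chosen with earlier results of these data known. Named genes are all members, BMI1, the highest and lowest tested gene of each list where none passed, and the 3 genes most like RGS2 and the 2 tested members widest over control arrays. Neighbouring genes, GNB5, RGS7BP, PDGFRB, CNN1 and PTPRC were added after values were seen. Alternatives were other pseudocounts, filters, normalization, probe set means, no trend, array weights, no block, no condition term and each line left out.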

Additional observations from a re-analysis of the deposited data

Results flagged for a closer look

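In 30 groups of 4 values (the control signals, the knockdown signals and the log2 ratios of each member's brightest probe set), 3 had a value far from the other 3, and chance alone gives about 1 such group in 20. The RGS10 control signal in SH-SY5Y was 74.9, far below the other lines, with a gap to the nearest of 0.842 of the whole range on the log2 scale. The RGS12 knockdown signal in SK-N-BE was 139.6 and lay below the others with a gap of 0.839 of the range. The RGS16 log2 ratio in NB-39-nu was 0.88, the only positive one of the 4 lines, with a gap of 0.843 of the range.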

How the results depend on the processing

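The count of genes differing between lines went from 7905 to 4322 with a filter at the 75th percentile. Only 3 members were tested there and all 3 differed, in 11 pairs of lines. After knockdown 3 members were higher in all 4 lines. The shares of all genes under that filter were not counted, so nothing is read from these member counts. With 1 line left out, 6 to 9 members differed between lines, and 6422 to 7606 genes did. Without the condition term 8 members differed between lines, in 32 pairs of lines, and 7699 genes did. The pairs that differed, 35 with all lines, were 21 without NB-39-nu, 19 without SH-SY5Y, 17 without SK-N-DZ and 15 without SK-N-BE, when each member has 3 pairs. The count of genes changed by knockdown, 1 as reported, was 2 with log2(signal + 75), no filter, the stricter filter, quantile normalization or array weights, 0 with the mean of all probe sets or no trend, 2 without NB-39-nu or SH-SY5Y and 0 without SK-N-BE or SK-N-DZ. In the unpaired fit with no replicate block it was 0 (23 genes at an unadjusted p under 0.05, against 923). The pathway lists had 0 calls under all 13 alternatives run. The mean log2 ratio of RGS2 stayed between 0.74 and 0.95 under its 8 alternatives, the lowest without NB-39-nu. Of 80 member ratios under alternatives, 7 had the other sign: RGS3 at -0.28 and RGS16 at 0.10 with the mean of all probe sets, RGS16 at 0.01 without SH-SY5Y, and RGS17 in 4 settings, from -0.03 to -0.005. The mean of all probe sets moved RGS10 from 0.16 to 0.45, RGS12 from 0.19 to 0.33, RGS5 from 0.59 to 0.29 and RGS7 from 1.15 to 0.28. Signals under 75 limit RGS7, most RGS12 probe sets, RGS10 in SH-SY5Y and RGS16 in SK-N-DZ, where its 2 brighter probe sets had 3 of 4 values under 75. RGS17 in NB-39-nu lay close above 75.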
